A study of Caenorhabditis elegans with 2 samples.

Results

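The authors' list of NFYA-1 binding peaks in Caenorhabditis elegans larvae that passed their reproducibility threshold holds 6932 peaks. Of these, 216 lay at a transfer RNA gene and away from the start of every protein-coding gene. A peak was counted here when its summit fell between 500 bp before and 200 bp after the annotated start of a tRNA gene, and in no such window of a protein-coding gene. These 216 peaks are 3.12% of the list (95% Wilson interval 2.73 to 3.55). They hold a summit in the window of 247 of the 612 nuclear tRNA genes, and the tRNA gene with the nearest start was taken as the gene of each peak. The animals were whole hermaphrodites at the third larval stage (L3) of strain OP404, genotype unc-119(tm4063) III; wgIs404, whose integrated transgene makes NFYA-1 with GFP and FLAG at its C terminus. Chromatin was sheared by sonication and the fusion protein pulled down through its GFP. Both libraries, labelled as biological replicates, carry the same alleles and make up the only group, so no comparison between conditions exists. All values come from tagged NFYA-1 in 1 transgenic line, no untagged library was analysed here, and whole animals mix all tissues. The read depth is unknown from the peak lists.

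tRNA genes are short genes transcribed by RNA polymerase III. The A box and B box lie inside the gene, where they are bound by the factor TFIIIC, which brings TFIIIB to the DNA just upstream, and a run of T ends the transcript. NF-Y, whose A subunit is NFYA-1, is a trimeric factor known for binding the CCAAT box of genes transcribed by RNA polymerase II. Worm tRNA genes occur in many identical copies, many of them on the X chromosome and many inside introns of protein-coding genes. How reads with several matches were mapped is not stated in the sources used.

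The sequences below show what a bound and an unbound tRNA gene look like. They run on the strand of the tRNA gene from 20 bases before it to 15 bases after it, are taken from the RefSeq sequence of WBcel235, the assembly of ce11, and carry in capitals the A box (TNGNNNA), the B box (GTTCNANNC) and the T run (4 or more T) found by pattern on the gene's strand. The first and second are proline tRNA genes (anticodon UGG) under the tRNA peaks that come 3rd and 4th in signal, at chrX:5801452-5801558 on the plus strand and chrIII:11066833-11066939 on the minus strand. The next is an unbound copy of the same gene at chrIV:14225082-14225188 on the plus strand. The fourth is an alanine gene (anticodon UGC) under the tRNA peak that comes 5th, at chrX:9743569-9743675 on the plus strand. The fifth is the single selenocysteine tRNA gene, which is bound, at chrIV:658161-658281 on the plus strand. The last is an unbound tRNA pseudogene that keeps both boxes and the T run, at chrV:19577370-19577476 on the plus strand.
F46G11.t1: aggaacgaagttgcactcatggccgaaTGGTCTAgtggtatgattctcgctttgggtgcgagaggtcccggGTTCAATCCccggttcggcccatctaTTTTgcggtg
W09D6.t2: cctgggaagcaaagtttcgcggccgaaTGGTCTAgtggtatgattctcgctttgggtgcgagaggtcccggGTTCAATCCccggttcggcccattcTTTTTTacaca
F02H6.t1: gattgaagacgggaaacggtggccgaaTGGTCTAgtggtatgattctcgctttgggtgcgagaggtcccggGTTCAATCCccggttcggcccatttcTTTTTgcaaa
F15G9.t1: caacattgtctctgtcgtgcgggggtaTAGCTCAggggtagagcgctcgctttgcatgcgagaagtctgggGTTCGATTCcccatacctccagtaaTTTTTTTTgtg
K11H12.t1: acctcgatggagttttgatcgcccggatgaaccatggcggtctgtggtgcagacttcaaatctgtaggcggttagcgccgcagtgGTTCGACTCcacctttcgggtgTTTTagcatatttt
B0399.t1: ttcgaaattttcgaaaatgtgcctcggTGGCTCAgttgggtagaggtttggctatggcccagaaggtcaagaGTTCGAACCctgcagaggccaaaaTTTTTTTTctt

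The 3 proline genes share every base of the gene and differ only in the flanks. In the selenocysteine gene no A box was found at its usual place, with the pattern starting at bases 6 to 10, while its B box and T run were found. Of the 612 tRNA genes, 567 hold the A box pattern, 587 the B box pattern and 602 a T run within 20 bases after the gene.

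tRNA genes were bound more often than any other annotated gene class compared. An IDR summit, meaning a summit of the list that passed the authors' irreproducible discovery rate threshold, lay in the window of 280 of 612 tRNA genes (45.8%, 41.8 to 49.7), when summits that also fell in a protein-coding window were kept. Over all nuclear genes the share was 11.1%, and over protein-coding genes it was 15.6%. With only summits outside protein-coding windows, 247 tRNA genes were bound (40.4%, 36.5 to 44.3), against 3.48% of all nuclear genes. The latter share counts the 19973 protein-coding genes, which cannot be bound under that rule, so it is lowered by construction. The nearest class was the snoRNA genes, whose RNAs guide the modification of other RNAs, with 115 of 346 bound (33.2%, 28.5 to 38.4), and the intervals of these classes do not overlap. snRNA genes followed with 28 of 129 (21.7%, 15.5 to 29.6) and miRNA genes with 54 of 261 (20.7%, 16.2 to 26). None of the 20 rRNA genes had a summit, which allows a share of up to 16.1%. Identical gene copies and genes under a shared peak are not independent, and the intervals cover counting error only.

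**Figure D1:**
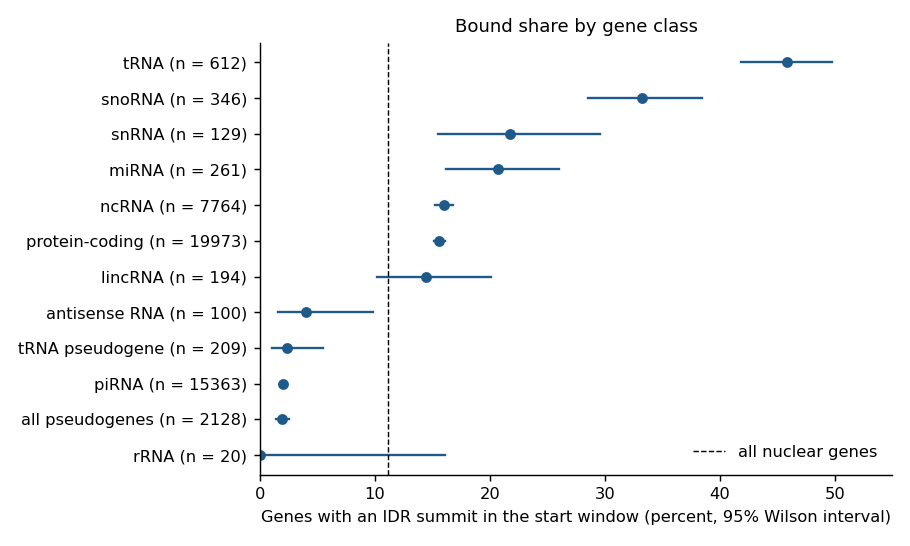
Share of genes of each class with an IDR summit in the start window, in percent, with 95% Wilson intervals as bars and the number of genes in brackets. tRNA genes stand highest at 45.8%, tRNA pseudogenes at 2.39%, and the dashed line marks all nuclear genes at 11.1%.

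tRNA pseudogenes, which are decayed copies annotated as a class of their own, were bound in 5 of 209 cases (2.39%, 1.03 to 5.48). This comparison was chosen after the files were seen. Most pseudogenes keep the promoter letters: 198 hold the A box pattern, 165 the B box pattern and 192 a T run. Among pseudogenes with both boxes, as in the printed B0399.t1, 2 of 157 were bound (1.27%, 0.35 to 4.53), while 255 of 543 tRNA genes with both boxes were bound (47.0%, 42.8 to 51.2). With a T run as well, the counts were 1 of 142 pseudogenes and 253 of 536 tRNA genes. The classes also differ in place and in sequence uniqueness. The central part of a chromosome, from 25 to 75% of its length, holds 26 of 209 pseudogenes (12.4%) and 321 of 612 tRNA genes (52.5%). In that central part 3 of 26 pseudogenes (11.5%, 4 to 29) and 151 of 321 tRNA genes (47.0%, 41.6 to 52.5) were bound. In the outer parts 2 of 183 pseudogenes (1.09%, 0.30 to 3.90) and 129 of 291 tRNA genes (44.3%, 38.7 to 50.1) were bound. Over the gene with 100 bp added on each side, the median share of 32-base stretches that occur once in the genome was 97.5% for pseudogenes, 78.1% for bound tRNA genes and 78.4% for unbound tRNA genes. Where the gene sequence occurs once, 4 of 172 pseudogenes (2.33%, 0.908 to 5.83) and 39 of 140 tRNA genes (27.9%, 21.1 to 35.8) were bound. With more copies it was 1 of 37 (2.70%, 0.479 to 13.8) and 241 of 472 (51.1%, 46.6 to 55.5). Of 22 tRNA genes in which every 32-base stretch is unique, 2 were bound (9.09%, 2.53 to 27.8). That interval overlaps the one of all pseudogenes. The part of sequence uniqueness in the class difference was not tested.

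The summits gathered around the starts of the tRNA genes, on both sides of the start. The offset, which is the distance from the first base of the tRNA gene to the summit on the gene's strand, had a median of 1.5 bp (quartiles -25 and 29.25, n = 216 peaks). The median was -3 bp in replicate 1 (n = 211 peaks with a region there) and -3 bp in replicate 2 (n = 213). In all, 104 summits lay upstream of the gene (48.1%, 41.6 to 54.8), 100 inside it (46.3%, 39.8 to 53.0) and 12 beyond its end. Within 50 bp of the annotated start lay 165 of 216 summits (76.4%, 70.3 to 81.6). Of 2560 summits in protein-coding windows it was 367 (14.3%, 13.0 to 15.7), measured from the nearest annotated protein-coding start. How far annotated starts lie from where transcription begins was not tested for either class. Those 2560 summits had a median offset of -154 bp (quartiles -255 and -69). For scale, the A box pattern of bound genes began at base 8 (median) and the B box pattern at base 52. The summits of the replicates at a given tRNA peak lay a median of 22 bp apart (quartiles 7 and 44.25, n = 208), which bounds how finely a single offset can be read.

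**Figure D2:**
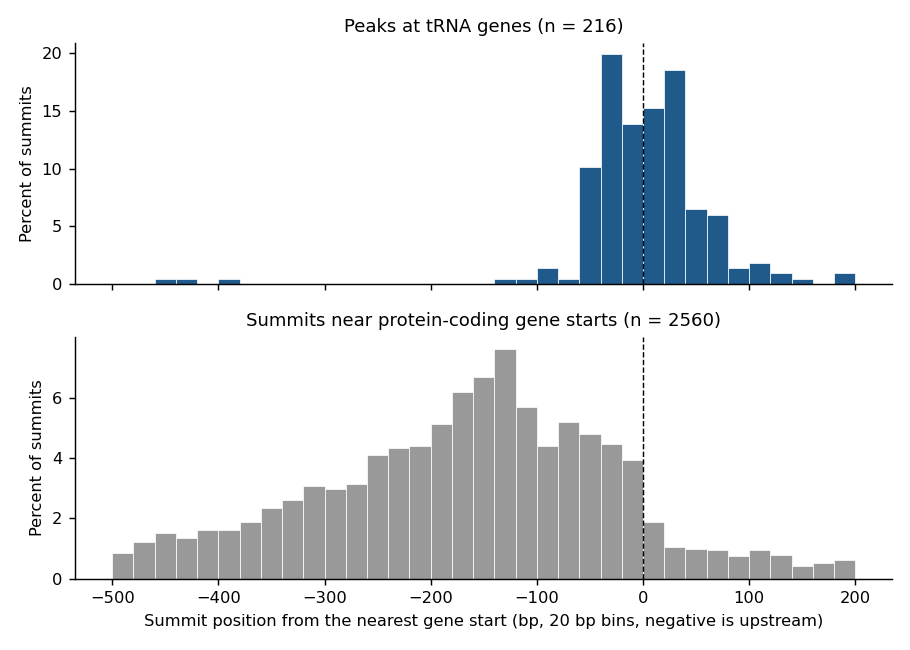
Summit positions in 20 bp bins relative to the nearest annotated gene start, as percent of the summits in each panel, for the 216 peaks at tRNA genes (top) and 2560 summits in protein-coding windows (bottom). The tRNA summits gather within about 100 bp of the start (202 of 216), while the protein-coding summits spread upstream around a median of -154 bp.

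A few summits lay at the window's edges. Just inside the upstream edge were those of F10C1.t1 (Gly) at -448 bp, F58D5.t1 (Val) at -433 bp and C06G4.t1 (Phe) at -383 bp, and the next was F49C5.t4 at -124 bp. Just inside the downstream edge were C10G8.t1 (Gln) at 183 bp and C04A11.t1 (Leu) at 182 bp. The nearest summits outside the window and outside protein-coding windows were at -554 bp from F23A7.t1 and at 218 bp from B0350.t1, and 12 such summits lay within 1000 bp upstream or 600 bp downstream of a tRNA start. The distance alone does not tie the 3 far upstream summits to the tRNA gene. The nearest protein-coding start lay 210 bp from the summit at F10C1.t1, which is in an exon. It lay 535 bp from the summit at F58D5.t1 and 1033 bp from that at C06G4.t1. F10C1.t1 also had a nearer summit at 63 bp, which was left out because it fell in the window of the protein-coding gene K05F1.6.

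Signal at tRNA genes was lower, by median rank, than at the other peaks of this list. The signal is the authors' own value per peak, of unstated scale, and peaks were ranked by it from 1, the strongest, to 6932. The 216 peaks had a median rank of 4221 (95% interval of the median 3794 to 4460, quartiles 3021.5 and 5378.2), against 3431.5 for all other IDR peaks and 2827.5 for those in protein-coding windows. The strongest 693 peaks of the list held 1 tRNA peak, the strongest 1733 held 15 and the strongest 3466 held 75, while 64 fell among the weakest 1733. A width of 356 bp, the commonest in the list, was held by 186 of the 216 peaks (86.1%) and by 60.5% of all IDR peaks. The 30 peaks of other widths had a median rank of 1876.5 and those of 356 bp one of 4463.

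The strongest tRNA peak was that of F58D5.t1, a valine gene on chromosome I, with signal 389.3 and rank 615, rank 646 in replicate 1 and rank 592 in replicate 2. Its summit is among the 3 far ones, at -433 bp, and lay 535 bp from the nearest protein-coding start. The next was at M02F4.t1 (glycine, anticodon UCC, chromosome X), with signal 314.6, rank 889 in the IDR list, rank 777 in replicate 1 and rank 998 in replicate 2. Its summit lay -58 bp from M02F4.t1 and -59 bp from M02F4.t2, a glutamate gene that starts 117 bp away and runs in the opposite direction. F46G11.t1 (proline, printed above) had signal 299.8, rank 964 in the IDR list, rank 1122 in replicate 1 and rank 922 in replicate 2. It too shares its summit with an oppositely running gene, F46G11.t2, at -90 and -100 bp from the starts. Both of these summits lie between divergent tRNA pairs on X.

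W09D6.t2 (proline, chromosome III) followed with signal 289.9 and rank 1022, rank 785 in replicate 1 and rank 1365 in replicate 2, at -47 bp in an intron of rsa-2. Its summit also lies between a divergent pair, at -61 bp from W09D6.t1. F15G9.t1 (alanine, chromosome X) had signal 285.5 and rank 1044 with its summit at 51 bp, inside the gene, in an intron of him-4. It had rank 951 in replicate 2 and no overlapping region in replicate 1. K08E7.t1 (lysine, chromosome IV) had rank 1183 in the IDR list, rank 1225 in replicate 1 and rank 1238 in replicate 2, at -41 bp in an intron of pgp-1. The others of the strongest 12 were C37A2.t1 (Cys, in an intron of cye-1, rank 1257), C42D8.t1 (Ile, rank 1465), C53C7.t2 (Ser, rank 1476), F41D9.t3 (Asn, in an intron of sulp-3, rank 1514), R04A9.t1 (Gln, in an intron of ZK1193.2, rank 1545) and F52H2.t1 (Asp, in an intron of aat-3, rank 1611). Their replicate ranks ran from 1139 (R04A9.t1) to 1619 (F52H2.t1) in replicate 1 and from 1180 (C53C7.t2) to 2308 (R04A9.t1) in replicate 2. Of the 12 summits, 11 lay upstream of the gene.

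The weakest tRNA peak was the second peak of C04A11.t1 (leucine, a gene with an intron, chromosome X), with signal 54.4, rank 6845, rank 7285 in replicate 1 and rank 7392 in replicate 2. The same gene had a stronger peak of rank 2105 with its summit at -18 bp. No other tRNA gene was the nearest to more than 1 of the peaks, so that the 216 peaks belong to 215 genes. In all, 31 summits lay in the windows of more than 1 tRNA gene, in 20 cases at genes that run away from each other and in 10 cases at genes on 1 strand. The most was 3 windows, at a summit of rank 4209 in an intron of K01A12.3 that serves K01A12.t4, K01A12.t5 and K01A12.t2, all cysteine genes.

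Both replicates held most of these peaks. Of the 216 peaks, 211 overlapped a region of the relaxed list of 30000 regions in replicate 1, 213 in replicate 2, and 208 in both. Against only the strongest 6932 regions of each replicate, 190 overlapped in replicate 1 (88.0%), 188 in replicate 2 (87.0%) and 77.3% (71.3 to 82.4) in both. The median rank of the tRNA peaks was 4163 in replicate 1 and 4363 in replicate 2, and 114 of 208 ranked higher in replicate 1. The Spearman correlation of the ranks was 0.688 across the 208 peaks, a description of 1 pair of libraries whose regions the IDR threshold had already selected. Peaks missing a region in replicate 1 were those of F15G9.t1, Y43F4A.t2, F01G12.t1, F23D12.t1 and F14H8.t1, and those missing in replicate 2 were of B0212.t1, T25E4.t1 and K05G3.t1. R04D3.t3 (Pro) differed most, with rank 4712 in replicate 1 and rank 26545 in replicate 2.

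**Figure D3:**
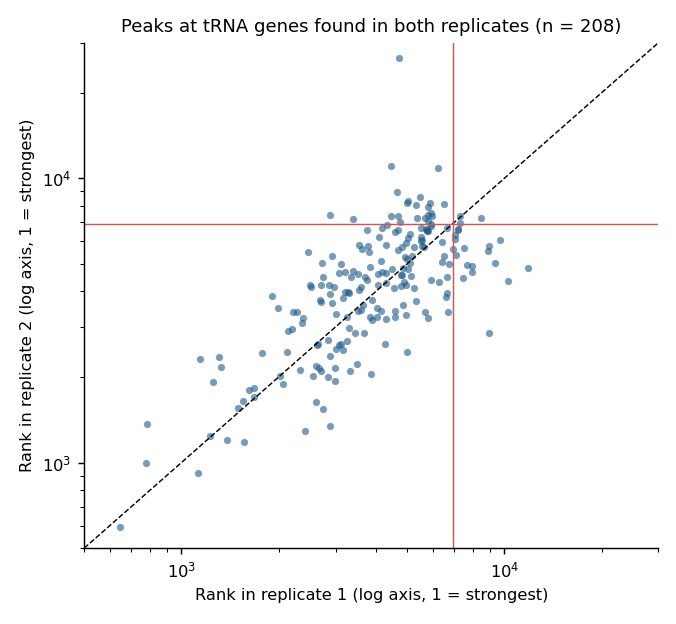
Rank of each of 208 peaks at tRNA genes in replicate 1 (x axis) and replicate 2 (y axis), both on log axes with 1 the strongest, with the diagonal dashed and rank 6932 in red. Points follow the diagonal with scatter (Spearman 0.688), and R04D3.t3 stands apart at rank 26545 in replicate 2.

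Genes for all 20 amino acids and for selenocysteine were bound. The share was highest for leucine (23 of 39, 59.0%, 43.4 to 72.9), phenylalanine (8 of 14, 57.1%, 32.6 to 78.6), proline (23 of 42, 54.8%, 39.9 to 68.8) and valine (17 of 31, 54.8%, 37.8 to 70.8). It was lowest for tyrosine (5 of 19, 26.3%, 11.8 to 48.8), histidine (6 of 20, 30%, 14.5 to 51.9) and tryptophan (4 of 12, 33.3%, 13.8 to 60.9). The intervals of the highest and lowest overlap, so no order among the amino acids is read. Initiator and other methionine genes were each bound in 5 of 10 cases (50%, 23.7 to 76.3). By anticodon, 44 of 47 had a bound gene. The exceptions were the arginine anticodons CCG (0 of 2 genes) and GCG (0 of 1) and the glycine anticodon CCC (0 of 3). Their intervals reach 65.8, 79.3 and 56.1%, above the 45.8% of all tRNA genes, so no difference by anticodon is read.

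**Figure D4:**
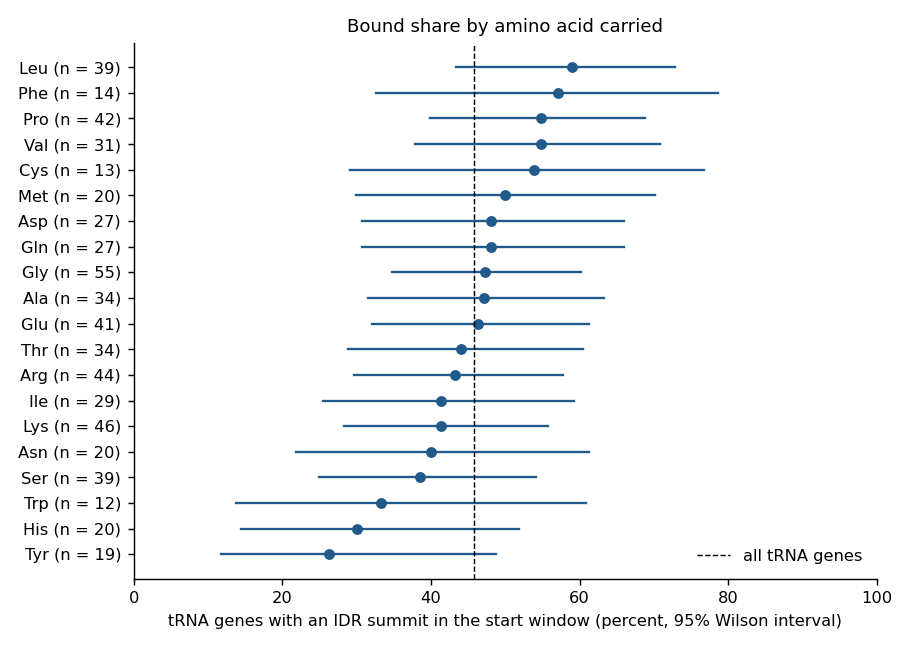
Share of tRNA genes with an IDR summit in the start window for each amino acid, in percent, with 95% Wilson intervals and the number of genes in brackets. Shares run from 59.0% (Leu) to 26.3% (Tyr) around the dashed line at 45.8%, and neighbouring intervals overlap.

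The selenocysteine gene K11H12.t1 lies in an intron of K11H12.8, and its peak had signal 138.3, rank 2984, rank 3174 in replicate 1 and rank 2492 in replicate 2, with the summit at -54 bp. The 4 bound tryptophan genes were B0523.t1 (rank 2057, in an intron of fli-1), C03B1.t1 (rank 3051, in an intron of C03B1.2), Y95B8A.t1 (rank 5833, in an intron of nas-30) and Y4C6B.t2 (rank 6019), and 8 were unbound. Their summits lay between -20 and 16 bp, and the 4 genes share 1 sequence. Among the 216 peaks, each given to the tRNA gene of nearest start, the strongest for each remaining amino acid was at F47G6.t1 for Arg (rank 1785, in an intron of spe-15), C04A2.t1 for Leu (rank 1804, in an intron of C04A2.15), K02B12.t1 for Glu (rank 1938, in an intron of zhp-3), R11.t1 for Tyr (rank 1968), C06G1.t1 for His (rank 2450, in an intron of C06G1.1), F14F7.t1 for Thr (rank 2455), C14B9.t1 for Met (rank 2459) and Y39B6A.t9 for Phe (rank 2622). Stronger summits also lay in the windows of leucine, glutamate and threonine genes, and of a lysine gene. Those of C04E7.t1 (Leu, rank 922) and W09G10.t3 (Thr, rank 907) were left out for a protein-coding window, and M02F4.t2 (Glu) shares the summit of rank 889 given to M02F4.t1. The summit of W09G10.t3 also lay 122 bp from the start of W09G10.t2 (Lys), and K08E7.t1 (Lys) had rank 1183.

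tRNA peaks were concentrated on X to the extent that tRNA genes are. X held 99 of the 216 peaks (45.8%, 39.3 to 52.5) and 276 of the 612 tRNA genes (45.1%), but 17.1% of all IDR peaks. The bound share was 44.9% of tRNA genes on X (124 of 276, 39.2 to 50.8) and 46.4% on the autosomes (156 of 336, 41.2 to 51.8). Among autosomes it ran from 34.6% on V (27 of 78, 25 to 45.7) to 59.4% on III (38 of 64, 47.1 to 70.5), whose intervals do not overlap, with 57.9% on II, 42.4% on I and 42.3% on IV. Peak counts were 29 on III, 25 on IV and 21 each on I, II and V. The median rank was 4343 for the 99 peaks on X and 4203 for the 117 on autosomes, and the median offsets were -1 and 7 bp.

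Introns of protein-coding genes held 110 of the 216 summits (50.9%, 44.3 to 57.5), intergenic sequence 101 (46.8%, 40.2 to 53.4) and exons 5 (2.31%). Over all IDR summits the intron share was 29.3% and the intergenic share 64.1%. The tRNA genes themselves are split in much the same way, with 46.2% in introns and 52.1% intergenic. A tRNA gene in an intron was bound in 130 of 283 cases (45.9%, 40.2 to 51.8) and an intergenic one in 146 of 319 (45.8%, 40.4 to 51.3). On the strand of the host gene 73 of 160 were bound (45.6%) and on the opposite strand 56 of 122 (45.9%). Intronic peaks had a median rank of 4326 and intergenic ones 3848, with intervals of the median of 3863 to 4765 and 3524 to 4447 that overlap. tRNA genes that themselves hold an intron were bound in 12 of 29 cases (41.4%, 25.5 to 59.3).

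Bound and unbound tRNA genes lay at like distances from protein-coding starts. The median distance was 1745 bp for 280 bound and 1840 bp for 332 unbound tRNA genes, with overlapping intervals of 1442 to 2001 and 1537 to 2069. The bound share was 45.3% with such a start within 500 bp, 46.9% above that and up to 2000 bp and 44.9% beyond. With another tRNA start within 500 bp it was 47.8% (76 of 159), above that and up to 5000 bp 38.0% (63 of 166) and beyond 49.1% (141 of 287). The rule's exclusion left out 31 of the 247 summits in tRNA windows. All 31 were nearer to the tRNA start than to the protein-coding start, and 29 lay within 100 bp of the tRNA start. The strongest of these was at W09G10.t3 (threonine, chromosome II, summit at base 3519200), with signal 310.8 and rank 907, at -43 bp from the tRNA gene and -294 bp from clec-126. Their median rank was 3833.

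Gene sequences with many identical copies were bound more often than unique ones. Of the 140 tRNA genes whose sequence occurs once in the genome, 39 were bound (27.9%, 21.1 to 35.8), against 241 of 472 with more copies (51.1%, 46.6 to 55.5). The share was 49.4% at 2 to 5 copies, 49.5% at 6 to 15 and 53.5% above 15. Limited to genes with both boxes and an anticodon that codes for the annotated amino acid, 29 of 94 unique genes (30.9%, 22.4 to 40.8) and 225 of 438 others (51.4%, 46.7 to 56.0) were bound. Copy number moves with the uniqueness of the short sequences that reads map by. Of 22 tRNA genes in which every 32-base stretch is unique, 2 were bound (9.09%, 2.53 to 27.8), and of 474 with no unique stretch inside the gene 241 were bound (50.8%, 46.4 to 55.3). With 100 bp added on each side of the gene the order was not a steady one. At 90% or more unique stretches 15 of 63 genes were bound (23.8%, 15 to 35.6), from 50 to 90% 262 of 527 (49.7%, 45.5 to 54) and under 50% 3 of 22 (13.6%, 4.75 to 33.3). The part of read mapping in this difference was not tested.

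Identical genes differed from place to place in the summits called. Reads that fall wholly inside identical copies match each copy, and how such reads were placed is not stated. The part of read placement in the differences between copies was not tested. Of the 200 distinct tRNA gene sequences, 57 are shared by more than 1 gene, and 44 of these 57 had both bound and unbound genes, 5 only bound and 8 only unbound ones. The largest such family, glycine with anticodon UCC, had 18 of 29 genes bound, the lysine family with anticodon CUU 13 of 25, and the valine family with anticodon AAC 9 of 12. In the proline family with anticodon UGG, whose sequence is printed above, 15 of 24 genes were bound. Its printed unbound gene, F02H6.t1, had no summit even in the relaxed list called on both replicates together. The box patterns inside the gene were alike by construction within a family, and across all genes 94.6% of bound and 91.0% of unbound tRNA genes held the A box, 96.4% and 95.5% the B box, and 98.9% and 97.9% a T run.

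The sequence before the gene differed. In the 50 bp upstream, A and T made up a median of 56% of bases at bound tRNA genes (interval of the median 54 to 56, n = 280) and 60% at unbound ones (58 to 62, n = 332). By that measure, 66 of 118 genes under 50% A and T were bound (55.9%, 46.9 to 64.6), 126 of 225 from 50 to under 60% (56.0%, 49.5 to 62.3), 76 of 198 from 60 to under 70% (38.4%, 31.9 to 45.3) and 12 of 71 at 70% or more (16.9%, 9.94 to 27.3). The difference was present among identical genes. In 33 of the 44 families with bound and unbound genes the bound ones had the lower mean, in 10 the higher, and the median difference of bound minus unbound was -4.96 percentage points (quartiles -8.82 and -0.225). The gap ran over the whole upstream stretch, with 59.2% against 63.0% at 100 to 91 bp before the start and 57.8% against 65.5% at 40 to 31 bp, and was 53.1% against 52.6% in the last 10 bp. After the gene it was smaller. tRNA pseudogenes had a median of 62% (56 to 64) and a wide spread, with quartiles of 46 and 70%. Their interval overlaps that of the unbound genes and meets that of the bound ones at 56%. Pseudogenes lay below the bound genes at 50 to 31 bp before the start and above them in the rest of the 100 bp upstream. These cuts were chosen after the files were seen, and the recovery of DNA by base composition in these libraries was not tested.

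**Figure D5:**
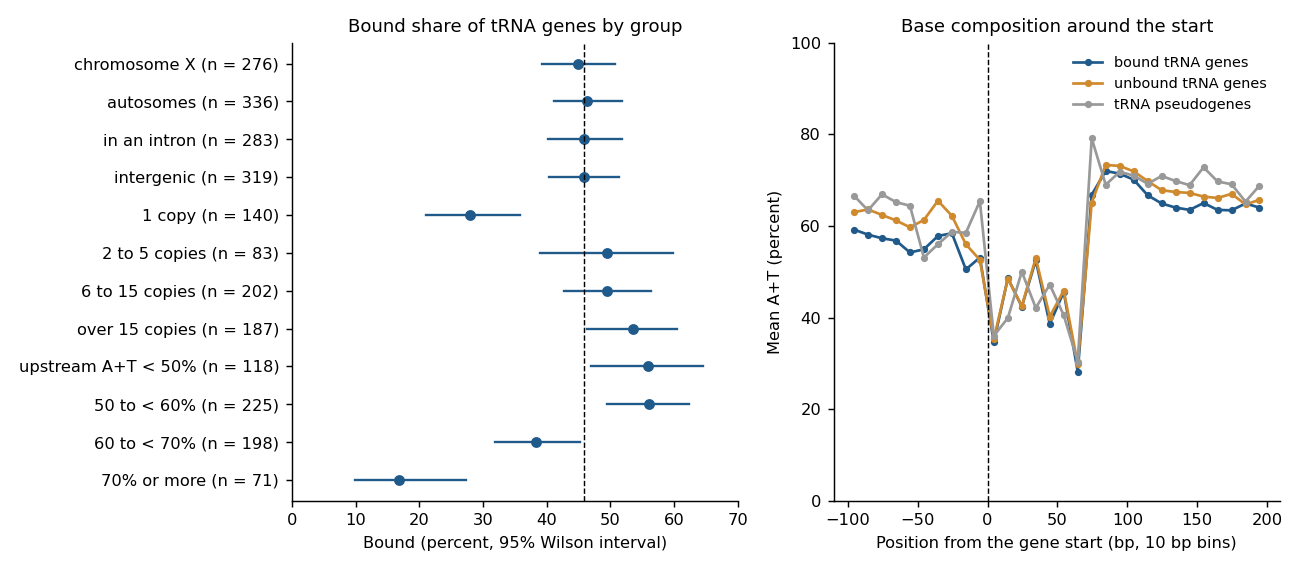
Left, share of tRNA genes bound in groups by chromosome, setting, number of identical copies and upstream A+T content, in percent with 95% Wilson intervals and gene numbers, where unique genes (27.9%) and genes with 70% or more A+T (16.9%) stand below the dashed 45.8%. Right, mean A+T percent in 10 bp bins around the gene start for bound and unbound tRNA genes and tRNA pseudogenes, where bound genes lie below unbound ones upstream and both follow the same course inside the gene.

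Many unbound tRNA genes had a summit in the relaxed list, which by its title holds peaks and background as input for IDR. Of the 332 unbound tRNA genes, 136 (41.0%, 35.8 to 46.3) had a summit in the window in the relaxed list called on both replicates together. Their median rank was 9753 of 30000 (interval of the median 9053 to 10612), with a lowest of 6945 and a highest of 29406. In 108 of these 136 the summit lay within 100 bp of the start, and the median offset was -7.5 bp. With the relaxed list 416 of 612 tRNA genes had a summit (68.0%, 64.2 to 71.5), against 44 of 209 tRNA pseudogenes (21.1%, 16.1 to 27.1) and 25.1% of all nuclear genes. The last share covers genes with and without an IDR summit, so it stands beside the 68.0% and not the 41.0%.

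CCAAT was found at fewer of these summits than of the other IDR summits. On either strand within 50 bp of the summit it was present at 34 of 216 tRNA peaks (15.7%, 11.5 to 21.2), against 28.0% of the other IDR summits (27 to 29.1). At points 300 bp to either side of the tRNA summits it was found in 25% (19.7 to 31.2) and 17.6% (13.1 to 23.2). At 16 of the 34 peaks the CCAAT lay inside a tRNA gene. It is part of the gene in 35 of 39 serine, 30 of 46 lysine and 16 of 34 threonine genes. tRNA genes with CCAAT in the gene were bound in 38 of 97 cases (39.2%, 30.1 to 49.1) and those without in 242 of 515 (47.0%, 42.7 to 51.3). With CCAAT in the 100 bp upstream, 43 of 88 were bound (48.9%, 38.7 to 59.1), and without it 237 of 524 (45.2%, 41.0 to 49.5). An extended CCAAT box, with purines before it and C or G and a purine after it, was found at 7 tRNA peaks (3.24%, 1.58 to 6.54), against 11.4% of the other IDR summits. Of these 7 peaks, 5 were at threonine genes that share 1 sequence, so they are not independent. In the flanks 300 bp away the extended box was found in 0.926% (0.254 to 3.31) and 1.39% (0.473 to 4), below the share at the summits but with overlapping intervals.

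GAGAGA on either strand was found at 35 tRNA peaks (16.2%, 11.9 to 21.7), against 28.8% of other IDR summits and 5.56% and 4.63% of the flanks 300 bp away. The B box pattern, which the tRNA gene itself supplies, was within 50 bp of 83 tRNA summits (38.4%, 32.2 to 45.1) and of 2.80% of other IDR summits. Sequences of 101 bases around tRNA summits had a median G and C content of 50.5% and those around other IDR summits 46.5%. Pattern matches describe the letters only.

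The protein-coding genes that serve tRNAs were looked up with the same window. Of 18 genes for RNA polymerase III, its subunits and its factors 6 were bound (33.3%, 16.3 to 56.3), led by rpb-8 (rank 1988) and rpac-19 (rank 2416), which encode subunits shared with other RNA polymerases, beside 15.6% of all protein-coding genes. Several names written for RNA polymerase III subunits matched no gene. With shared subunits among the 18, the share does not describe genes particular to RNA polymerase III. Among 20 cytosolic aminoacyl-tRNA synthetase genes, whose enzymes load tRNAs with amino acids, 9 were bound (45.0%, 25.8 to 65.8), led by nars-1 (rank 1432, asparagine) and aars-2 (rank 2657, alanine). Of 15 tRNA processing and export genes 2 were bound (13.3%, 3.74 to 37.9), xpo-3 (rank 3083), an export receptor for tRNA, and tut-2 (rank 4555), which takes part in tRNA thiolation.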

How the data were processed

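The deposited files are narrowPeak lists on ce11, and per the deposited file descriptions a relaxed list was called against a control for each of 2 replicates and for both together, from which the IDR list was derived. The signal of each region is the authors' deposited value on an unstated scale, so it was used only for ranks within a list. Aligner, caller, read length and depth are not stated in the sources read. Lists on ce10 were not used.

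A summit is the peak start plus the summit offset. Gene starts came from Ensembl release 115 (612 nuclear tRNA genes), amino acids from RefSeq product names (607 genes), and anticodons from the stem and loop of each gene, which coded for the annotated amino acid in 593 of 607. Stretches of 32 bases stood in for reads. Shares carry 95% Wilson intervals and medians order-statistic intervals, which cover counting error only, and no test was run, since there is 1 group. The members and lists were chosen with earlier results of these data known. Of the names written for the lists, 9 for RNA polymerase III and 1 for tRNA processing matched no gene and were left out.

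The genes named are the 12 strongest tRNA peaks, the strongest of each amino acid, the weakest, the summits farthest up and down, the summit in most windows, the strongest left-out summit, the selenocysteine and bound tryptophan genes and the 2 strongest bound genes of each list. Peaks absent from or far lower in a replicate, window-edge genes, sequence families, F46G11.t2, W09D6.t1, the printed unbound gene and pseudogene, F10C1.t1's other summit, C04E7.t1, W09G10.t2 and M02F4.t2 were named after values were seen. Alternatives varied windows, stringency, replicates, motif and overlap. Computations ran in Python 3.11.15 with pandas 2.3.3, numpy 2.4.6 and scipy 1.17.1, figures were drawn in matplotlib 3.10.9, and the functions for windows, offsets, anticodons and motifs were tested on simulated data.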

Additional observations from a re-analysis of the deposited data

How the results depend on the processing

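With the strongest 3466 peaks only, 75 tRNA peaks remained, 16% of tRNA genes were bound, the median rank was 2569 and the median offset was -13 bp, the first 3 by construction of the smaller list; the cause of the offset's move was not tested. The share of tRNA genes bound was 39.4% with 100 bp on each side of the start (an alternative chosen after seeing the data), 40.4% with summits outside protein-coding windows only and 27.9% for sequences that occur once, and the cause of the last was not tested. CCAAT was found at 29.2% of tRNA peaks within 100 bp of the summit, a longer search, at 3.24% in its extended form, a longer pattern, and at 25% in the flank on the lower side, where the cause was not tested. Overlap with both replicates was 96.3% when all relaxed regions counted. Without a replicate, meaning the 6932 strongest regions of the other, there were 205 to 211 tRNA peaks, 43.8 to 44.9% of tRNA genes bound, median offsets of -5 to -3 bp, 49.8 to 51.7% of summits in introns and 43.6 to 47.8% on X. The other alternatives moved counts by less than 1.5 times and shares and medians by less than their intervals. No paired analysis was possible because there is 1 group. The main limits are the missing untagged library, the unknown read depth and mapping of repeated sequence, and offsets no finer than the distance between replicate summits.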
